A study of Mus musculus with 28 samples.

Results

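The genes examined here encode the nuclear part of the mitochondrial respiratory chain. They were chosen by gene symbol, as names beginning with Nduf (subunit letters a, b, c, s or v and a number, which leaves out the Ndufaf assembly factors), Sdh, Uqcr, Cox4 to Cox8 or Atp5, which gave 85 of the 23038 genes listed. Of these, 37 carried names of complex I (NADH dehydrogenase), 4 of complex II (succinate dehydrogenase), 8 of complex III (cytochrome bc1), 18 of complex IV (cytochrome c oxidase) and 17 of complex V (ATP synthase). The symbol of the remaining gene, Cox4nb, is an older name of Emc8, a subunit of the endoplasmic reticulum membrane complex, and it was left out of all sums over the chain, which therefore cover 84 genes. The names do not follow function in every case. Ndufa4 is named for complex I and is now placed in complex IV, Cox7a2l takes part in joining complexes III and IV into supercomplexes, and Atp5s and Atp5sl carry the RefSeq symbols Dmac2l and Dmac2 and are not core parts of ATP synthase. All were counted here under the complex of their name, so the sums, shares and counts of complex I include Ndufa4 and those of complex IV do not.

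Complexes I and II pass electrons from NADH and succinate to ubiquinone, complex III passes them to cytochrome c and complex IV to oxygen, and complexes I, III and IV pump protons out of the matrix. ATP synthase uses the returning protons to make ATP. Complexes I, III, IV and V also hold subunits encoded by mitochondrial DNA, and neurons depend on this pathway for most of their ATP.

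RNA was measured in brain tissue of mice homozygous for a humanized Nova1 allele (Nova1hu/hu) and of wild-type siblings (Nova1wt/wt), both from heterozygous parents on a C57BL/6J background. The allele is a germline CRISPR/Cas9 knock-in that places valine where the mouse RNA-binding protein NOVA1 has isoleucine, together with silent changes used for genotyping, and it is carried by every cell. There were 6 Nova1hu/hu and 6 Nova1wt/wt libraries of embryonic midbrain taken at E18.5, 4 and 4 of midbrain from pups of postnatal day 21 (P21), and 4 and 4 of P21 cortex, 28 in all. The study used male and female pairs in equal number, but the labels do not give the sex of a library and do not say that each came from its own mouse, so p-values measure the spread between these libraries.

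The libraries held 18550922 to 45134998 counts, of which the 85 genes took 0.772% to 1.44%. The median level of Nova1, in TPM (a share of the library's transcripts after division by exon length), was 121 in Nova1hu/hu and 119 in Nova1wt/wt libraries of embryonic midbrain. It was 49.8 and 48.2 in midbrain at P21, and 24.7 and 24.4 in cortex. A gene count cannot show the substitution. Tissue labels were checked with 4 marker genes each. The summed level of the midbrain markers was 51.8 to 82.5 TPM in midbrain and 1.52 to 3.13 in cortex, and that of the cortex markers was 161 to 185 TPM in cortex, 3.33 to 4.66 in P21 midbrain and 16.03 to 23.6 at E18.5. None of the 26 mitochondrially encoded genes looked for was listed, so all values below are of nuclear genes.

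RefSeq promoters (GRCm38.p6, 250 bases before to 50 after the transcription start) were found for 69 of the 85 genes, in 75 windows. These were richer in CpG than promoters at large, with a median of 19 CpG and 57.3% G+C against 7 and 52.7% over 32851 windows. The 4 windows of the forms named below for other tissues or low oxygen had a median of 8.5 CpG and 50.8% G+C. Letters known as the core of 4 factors' sites were searched on both strands. GCGCATGCG, for nuclear respiratory factor 1 (NRF1), was in 10.7% of the members' windows and 1.75% of all windows. AAGATGGCG, for YY1, was in 12% and 1.4%, and these letters contain a start codon. CCGGAAGT, for ETS factors such as GABPA, was in 6.67% and 3.89%, and TCAAGGTCA, for estrogen-related receptors, in 2.67% and 0.423%. No window was counted more than once for the same letters, and the NRF1 letters overlap their own reverse complement. A match describes the letters and is not a bound site. The following 30-base windows are of genes with the largest age or regional differences of their complex, picked where NRF1 or YY1 letters were present. The matched letters are in capitals, on the gene's strand. The windows of Sdha, Ndufa1, Cox7c, Atp5b and Atp5e, which also had such differences, held none of the letters searched. The window of Ndufs7 is chr10:80249463-80249492 (+), of Uqcrc1 chr9:108936668-108936697 (+), of Atp5sl chr7:25619430-25619459 (+) and of Uqcr11 chr10:80406807-80406836 (-), where the NRF1 letters are reverse-complemented.
Ndufs7, YY1 letters: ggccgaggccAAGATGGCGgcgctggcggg
Uqcrc1, NRF1 letters: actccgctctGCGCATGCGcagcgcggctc
Atp5sl, YY1 letters: gttacctggcAAGATGGCGgcgcccagagc
Uqcr11, NRF1 letters: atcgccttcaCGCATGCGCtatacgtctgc
In Uqcrc1 and Ndufs7 the matched letters lie within the first 50 transcribed bases, starting 30 and 24 bases past the start site. Those of Atp5sl start at 26 bases from one of its start sites, also within that stretch, and at -53 from another. The 30 bases just before the start of Cox8a, chr19:7217617-7217646 (-), and of its muscle form Cox8b, chr7:140900447-140900476 (-), are shown as an example of a pair.
Cox8a, before the start: ttgtcccgacgtcatttccgaaatacttcc
Cox8b, before the start: gtgacaggagacagctgcagctctccaccc

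The chain as a whole took more of the RNA at P21 than at E18.5. The summed level of the 84 genes was 31132 ± 1635 TPM in embryonic midbrain (SD, n = 12, both genotypes), 45718 ± 1577 in P21 midbrain (n = 8) and 48097 ± 581 in cortex (n = 8). Every embryonic library lay below every P21 library, with a highest value of 33334 TPM against a lowest of 44235 in P21 midbrain. Complex I rose from 10417 to 14925 TPM, 1.43 times, complex II from 1050 to 1534, 1.46 times, and complex III from 2808 to 4340, 1.55 times. Complex IV rose from 7033 to 11693 TPM, 1.66 times, and complex V from 9823 to 13226, 1.35 times. The complexes therefore did not grow alike. Complex IV made up 22.6% ± 0.405 of the chain's TPM in embryonic midbrain, 25.6% ± 0.233 in P21 midbrain and 28.5% ± 0.661 in cortex, and the ranges of these 3 groups did not overlap. Complex V made up 31.6% ± 0.279, 28.9% ± 0.211 and 26.6% ± 0.307, again with no overlap, while complex I stayed between 31.9% and 34.2% in every library.

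**Figure D1:**
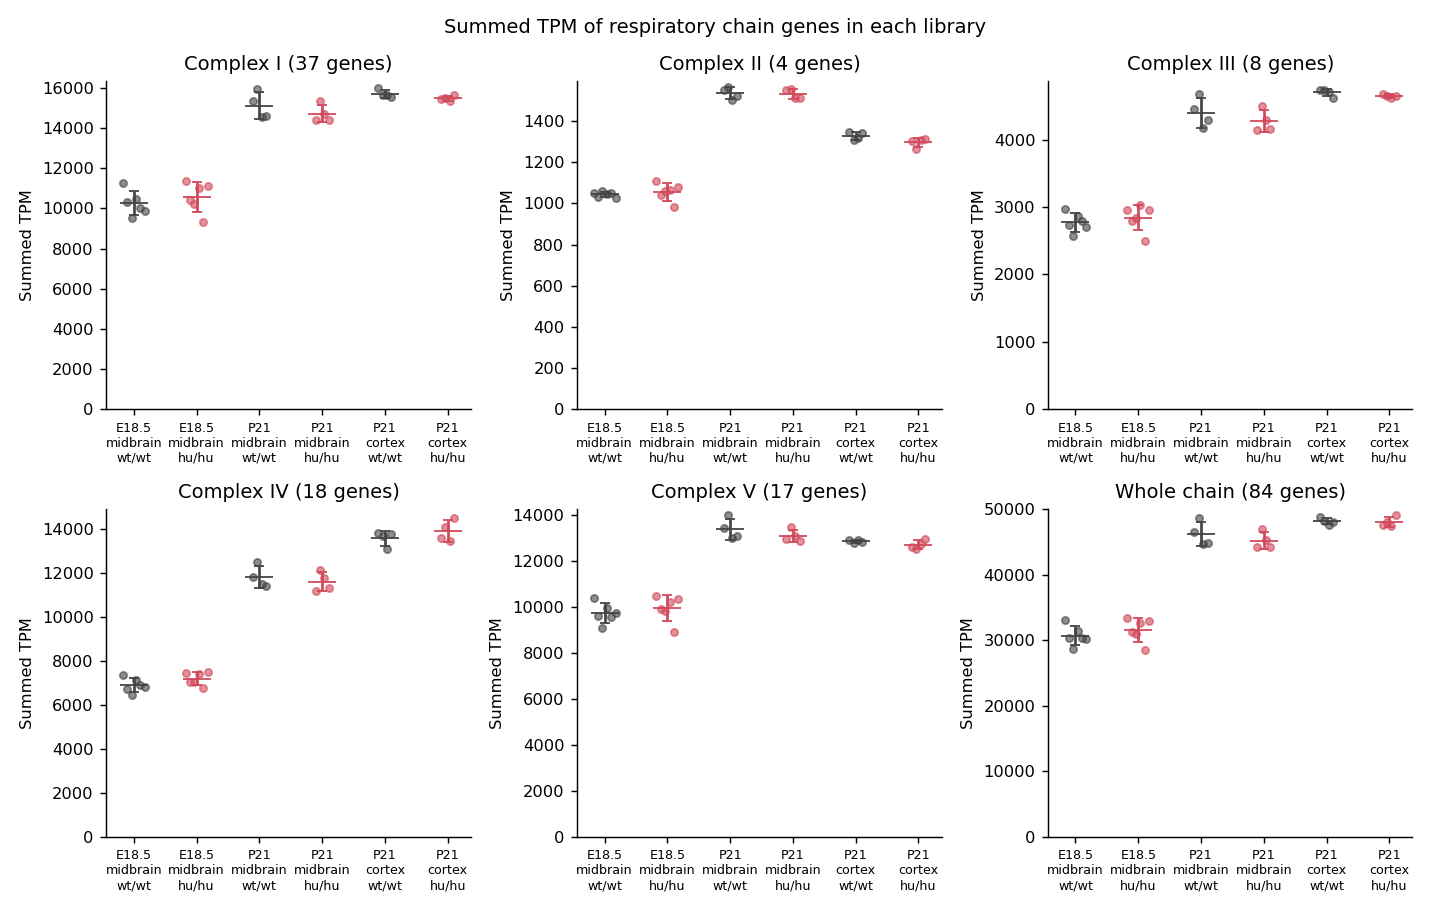
Summed TPM of the genes of each complex and of the whole chain (y axis) in each library, by age, area and genotype (x axis; points are libraries, the bar and whiskers the mean ± SD). Every P21 midbrain library lies above every E18.5 library in all 6 panels, and the genotypes overlap in each area.

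Genes of 1 complex differed widely in level. The 8 forms named for other tissues or low oxygen were left out. Among genes of complex I names in P21 midbrain, Ndufa4, now placed in complex IV, was highest at 1626 TPM. Ndufa11 was lowest at 56.3, a 28.9-fold span, and complex V spanned from Atp5b at 2661 to Atp5g2 at 23.2. Complex II spanned 4.62-fold, from Sdha to Sdhd, and complex III 5.29-fold, from Uqcrh to Uqcrfs1. Within complex IV, Cox4i1 was highest at 2596 TPM and Cox7c lowest at 95.7. At E18.5 these genes also stood highest and lowest of complexes I, III and IV, whereas Sdhb led complex II and Atp5s was lowest of complex V. The level of Ndufs5 cannot be compared with other genes, since its deposited exon length is only 74 nt. That of Ndufa11 is 2445 nt, against 918 nt for its longest annotated coding transcript. Its place as the lowest gene and the 28.9-fold span depend on that deposited length and are uncertain. Reads of 11 of the 85 genes can match an annotated pseudogene over the length of a read at 98% identity or more (Atp5l, Atp5f1, Atp5g1, Atp5h, Cox7a2l, Ndufa12, Ndufb4, Ndufs3, Ndufs5, Uqcr11 and Uqcrb), so that their counts are less certain.

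The comparison of P21 with E18.5 midbrain asks how the chain changes as the midbrain matures. Nearly all members were higher at P21. Of 83 members that passed the filter on low counts, 78 were higher, 2 lower and 3 did not pass the test (quasi-likelihood test of edgeR, p-values adjusted after Benjamini and Hochberg over all genes, 12 against 8 libraries with genotype as a covariate; passing means p under 0.05 and adjusted p under 0.1). Cox7b2 and Cox8c were not tested. Cox6a2 and Cox8b passed the filter only through the P21 libraries, and of the 81 members that also passed it at E18.5 alone 76 were higher and 2 lower. At the same rule 42.4% of all 16330 genes tested were higher and 43.3% lower. In 54 of the 83 every P21 library lay above every embryonic one, in 0 below, and in 29 they overlapped, while among all genes tested 23.3% lay wholly above and 36.8% wholly below. With at least a 1.5-fold change, 53 members were higher (51 without Cox6a2 and Cox8b) and 0 lower, against 26.2% and 25.7% of all genes. The median log2 fold change of the members was 0.74 and that of all genes was -0.02. TPM ratios come out lower than these fitted changes, in part because the fit scales libraries by TMM factors. With library totals alone the median of all genes was -0.17 and that of the members 0.58, and 71 members were higher and 3 lower. Litter, dissection and sequencing run go with age and cannot be told apart from it.

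In complex I, 35 of 37 genes rose, and the 7 core subunits, which carry the flavin and the iron-sulfur clusters, all rose at least 1.5-fold, with a median log2 fold change of 0.95. The median of the 30 other genes of complex I names, called accessory here and including Ndufa4, was 0.71, and 17 of them rose at least 1.5-fold. Ndufs7, a core subunit holding the last iron-sulfur cluster before ubiquinone, rose most. Its lowest, median and highest E18.5 values were 184, 209 and 227 TPM and those at P21 were 399.5, 441 and 483. The P21 libraries lay above all E18.5 libraries, with a log2 fold change of 1.28 ± 0.05 (SE, adjusted p = 5.59e-19). Ndufs1, the largest core subunit, went from a median of 125.3 to 179 TPM and rose by 0.68 ± 0.04. Ndufa1, a small accessory subunit of the membrane arm, had medians of 298 and 271 TPM, its libraries overlapped, and its fitted change of 0.11 ± 0.07 did not pass the test (adjusted p = 0.161). The other gene of complex I names that did not rise was Ndufa4l2, described with the tissue forms.

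Within complex II the catalytic subunit stood out. Sdha, the flavoprotein that oxidizes succinate, had E18.5 values of 250, 260 and 266 TPM (lowest, median, highest) and P21 values of 636, 662 and 671. The 2 ages did not come near each other, and the log2 fold change was 1.54 ± 0.03 (adjusted p = 2.2e-25). Sdhb, its iron-sulfur partner, rose by 0.41 ± 0.04, and the membrane anchors Sdhc and Sdhd by 0.32 ± 0.03 and 0.27 ± 0.04. Sdhd medians were 138 and 142 TPM with overlapping libraries. Subunits of 1 complex thus changed in unequal proportion, from 1.20-fold to 2.90-fold.

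All 8 genes of complex III rose. Uqcrc1, a core protein, had values of 326, 353 and 414 TPM at E18.5 and 692, 739 and 822 at P21. The ages did not overlap, and the log2 fold change was 1.27 ± 0.04 (adjusted p = 1.04e-20). Its partner Uqcrc2 rose less, by 0.51 ± 0.05, from a median of 370 to 465 TPM. Uqcr11, a small subunit, rose by 1.04 ± 0.07, Uqcrh, the hinge protein that meets cytochrome c, by 0.79 ± 0.05, and Uqcrfs1, the Rieske iron-sulfur protein, by 0.60 ± 0.03.

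In complex IV, 15 of 16 tested genes rose and 1 fell. The 15 include Cox6a2 and Cox8b, which passed the filter on low counts only through the P21 libraries, so their direction carries no weight here. Cox4i1, the ubiquitous form of subunit 4 and the most abundant gene of the complex, had 1160, 1268 and 1339 TPM at E18.5 and 2394, 2579 and 2809 at P21. No library overlapped, and the log2 fold change was 1.24 ± 0.04 (adjusted p = 3.62e-21). Cox6a1, Cox5b and Cox8a followed with 1.21 ± 0.05, 1.12 ± 0.05 and 1.09 ± 0.06. Cox7c, a small membrane subunit, was the exception among the ubiquitous subunits. It had 78.1, 97.4 and 112 TPM at E18.5 and 83.1, 93.7 and 109 at P21, which overlap fully, and its fitted change of 0.18 ± 0.07 (adjusted p = 0.0195) was 0.02 with library totals alone (adjusted p = 0.8) and 0.13 in Nova1hu/hu libraries alone (adjusted p = 0.277).

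In complex V, 15 of 17 genes rose. Atp5b, the catalytic beta subunit, went from 1656, 1740 and 1799 TPM to 2600, 2653 and 2738, with no overlap and a log2 fold change of 0.82 ± 0.03 (adjusted p = 3.15e-19). Atp5sl showed the largest rise under a complex V name, 1.09 ± 0.06, and Atp5s one of the smallest, 0.21 ± 0.05, which did not pass the test with library totals alone (0.06, adjusted p = 0.342). Atp5e, the epsilon subunit of the central stalk, had medians of 686 and 574 TPM and a fitted change of -0.05 ± 0.06 (adjusted p = 0.401), while with library totals alone it was -0.21 (adjusted p = 0.00275). The rotor protein subunit c is encoded by 3 genes that give the same mature protein. Atp5g3 held 79.7% of their summed TPM in embryonic midbrain and 77.2% at P21, Atp5g1 18.4% and 21.6%, and Atp5g2 1.94% and 1.27%. Atp5g1 rose 2.01-fold and Atp5g3 1.65-fold, and Atp5g2 did not pass the test (0.17 ± 0.12, adjusted p = 0.175).

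**Figure D2:**
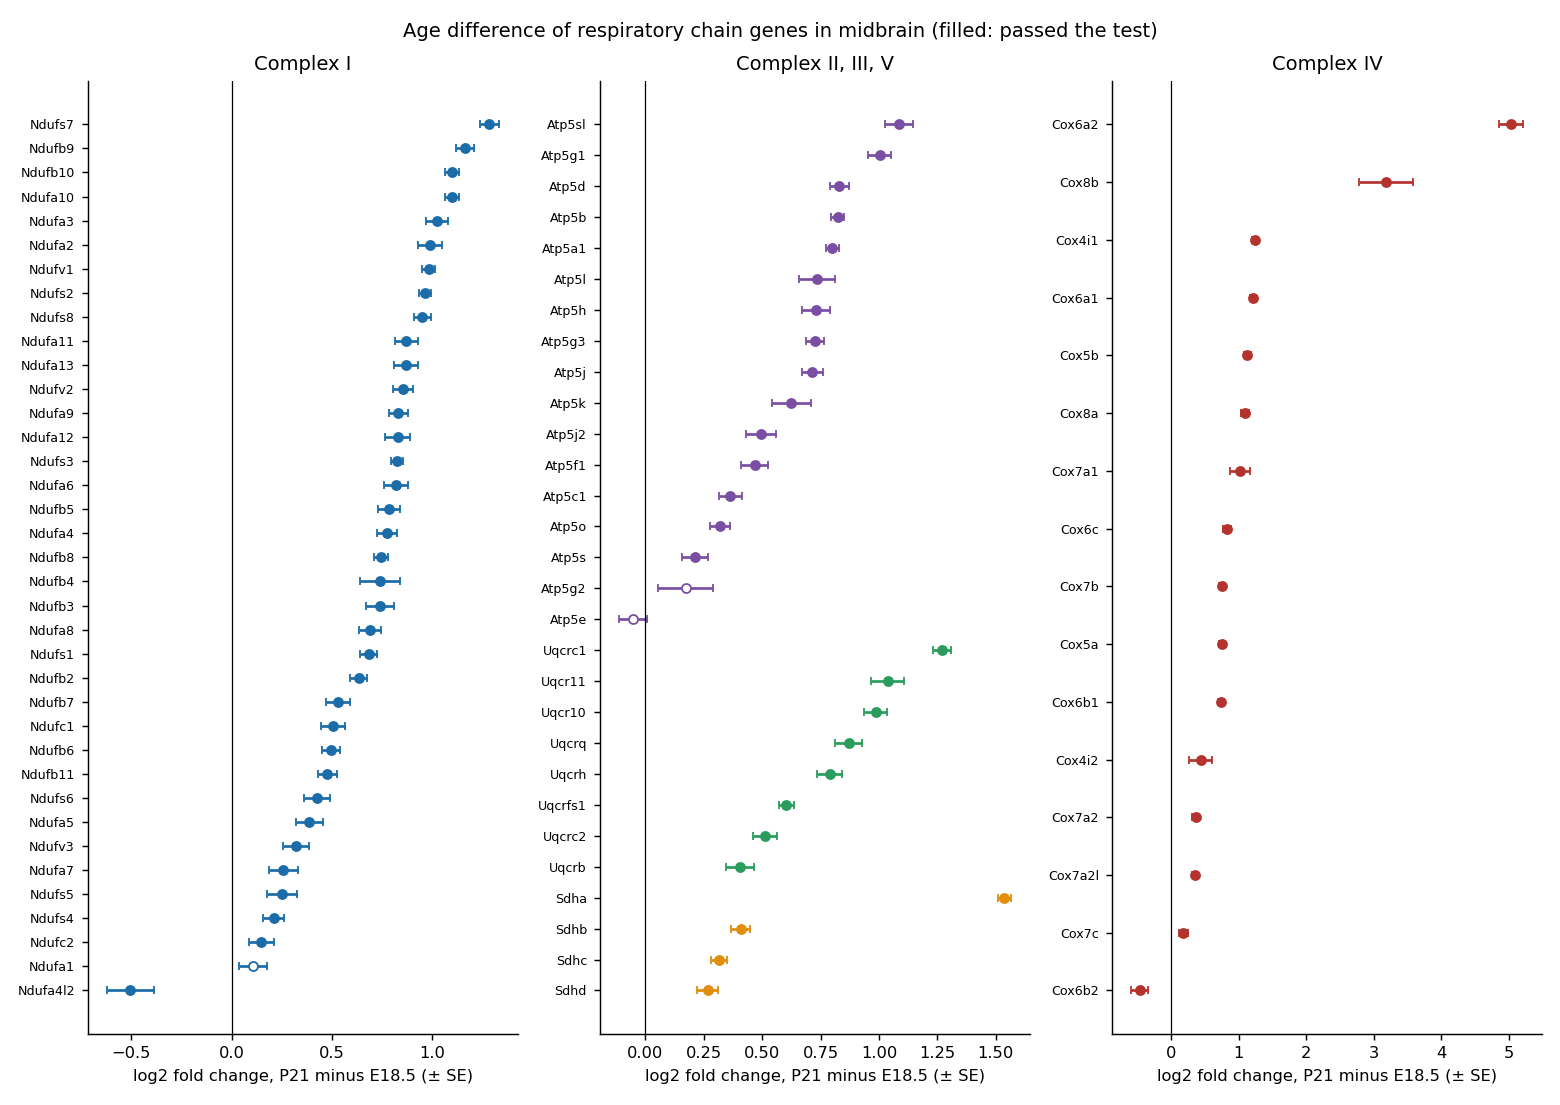
Log2 fold change of each tested member in midbrain, P21 minus E18.5 (x axis, ± SE), by gene (y axis) and complex; filled points passed the test. Nearly all points lie right of 0, and the filled points of Ndufa4l2 and Cox6b2 lie left of 0. Cox6a2 and Cox8b lie farthest right. These 2 genes passed the filter on low counts only through the P21 libraries, so their points are descriptions and their filling is not a test result.

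Among the members are 8 forms known best from other tissues or from low oxygen, called tissue forms here although most were detected in these libraries, each beside a widely expressed partner. Cox6a2, the heart and muscle form of subunit 6a, had the largest change of all members. Its E18.5 values were 0.411, 1.76 and 2.996 TPM (2 to 13 counts a library), its P21 midbrain values were 35.5, 44.8 and 53.0 and its P21 cortex values were 34.4, 41.8 and 50.4. Both P21 areas lay far above E18.5 with no overlap. The gene passed the filter on low counts only through the P21 libraries, so its fitted log2 fold change of 5.03 ± 0.18 is a description and no p is given. The difference between the P21 areas was 0.02 ± 0.08 (adjusted p = 0.828). It still made up a median of only 2.98% of the pair with Cox6a1 in P21 midbrain and 2.26% in cortex. Cox8b, the muscle form of subunit 8, had 17 counts in all 12 E18.5 libraries together, 5 of which had none, and 13 to 26 counts in each P21 midbrain library. Its median level was 0.452 TPM at E18.5, 4.32 in P21 midbrain and 2.55 in cortex, and cortex libraries overlapped those of E18.5. It too passed the filter only through the P21 libraries, and no fold or p by age is given for it. Cox7a1, the muscle form of subunit 7a, went from a median of 11.7 to 22.1 TPM with overlapping libraries (1.02 ± 0.15, adjusted p = 4.37e-07).

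Of 8 markers of skeletal and heart muscle, 1 rose with age and 4 fell (6 tested), and 2 of 7 were higher in P21 midbrain than in cortex and 4 lower. Their summed level was 12.1 to 19.4 TPM at E18.5, and at P21 it was 7.44 to 17.2 for midbrain and 20.4 to 28.9 for cortex, and Ckm, the muscle creatine kinase, stayed at or below 1.09 TPM in every library. Actc1 and Tnnt3 were at 0 in some cortex libraries and Myl2 in some embryonic ones. Pvalb, the parvalbumin of fast-spiking interneurons, went from 2.92 to 7.31 TPM at E18.5 to 270 to 361 in P21 midbrain and 124.5 to 136.5 in cortex. The part of these cells in the levels of Cox6a2 was not tested.

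The other forms moved less. Cox6b2, the testis form of subunit 6b, fell with age from a median of 22.9 to 15.5 TPM (-0.47 ± 0.13, adjusted p = 0.0015), with overlapping libraries, and it did not pass in Nova1hu/hu libraries alone (-0.30, adjusted p = 0.141). The testis markers Prm1, Prm2, Tnp1 and Ldhc summed to 1.64 to 6.23 TPM at E18.5 and 0.211 to 3.06 at P21, and Tnp1 was at 0 in all cortex libraries. Cox7b2 had 1 to 11 counts a library, and Cox8c had 2 counts in 28 libraries, with 0 in every midbrain library, which allows up to 3 counts in each. Ndufa4l2, a form raised by low oxygen, fell from a median of 15.6 to 9.60 TPM (-0.50 ± 0.12, adjusted p = 0.000276). Cox4i2, the form of subunit 4 known from lung and vessels, went from a median of 6.03 to 7.32 TPM (0.43 ± 0.17, adjusted p = 0.0229), which did not pass with library totals alone (0.28, adjusted p = 0.124), in Nova1hu/hu libraries alone (0.39, adjusted p = 0.221), or without the second Nova1hu/hu library of P21 midbrain (0.37). Of 8 mural cell markers 4 rose and 2 fell, and their summed level was 273 to 375 TPM at E18.5 and 305 to 384 in P21 midbrain.

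**Figure D3:**
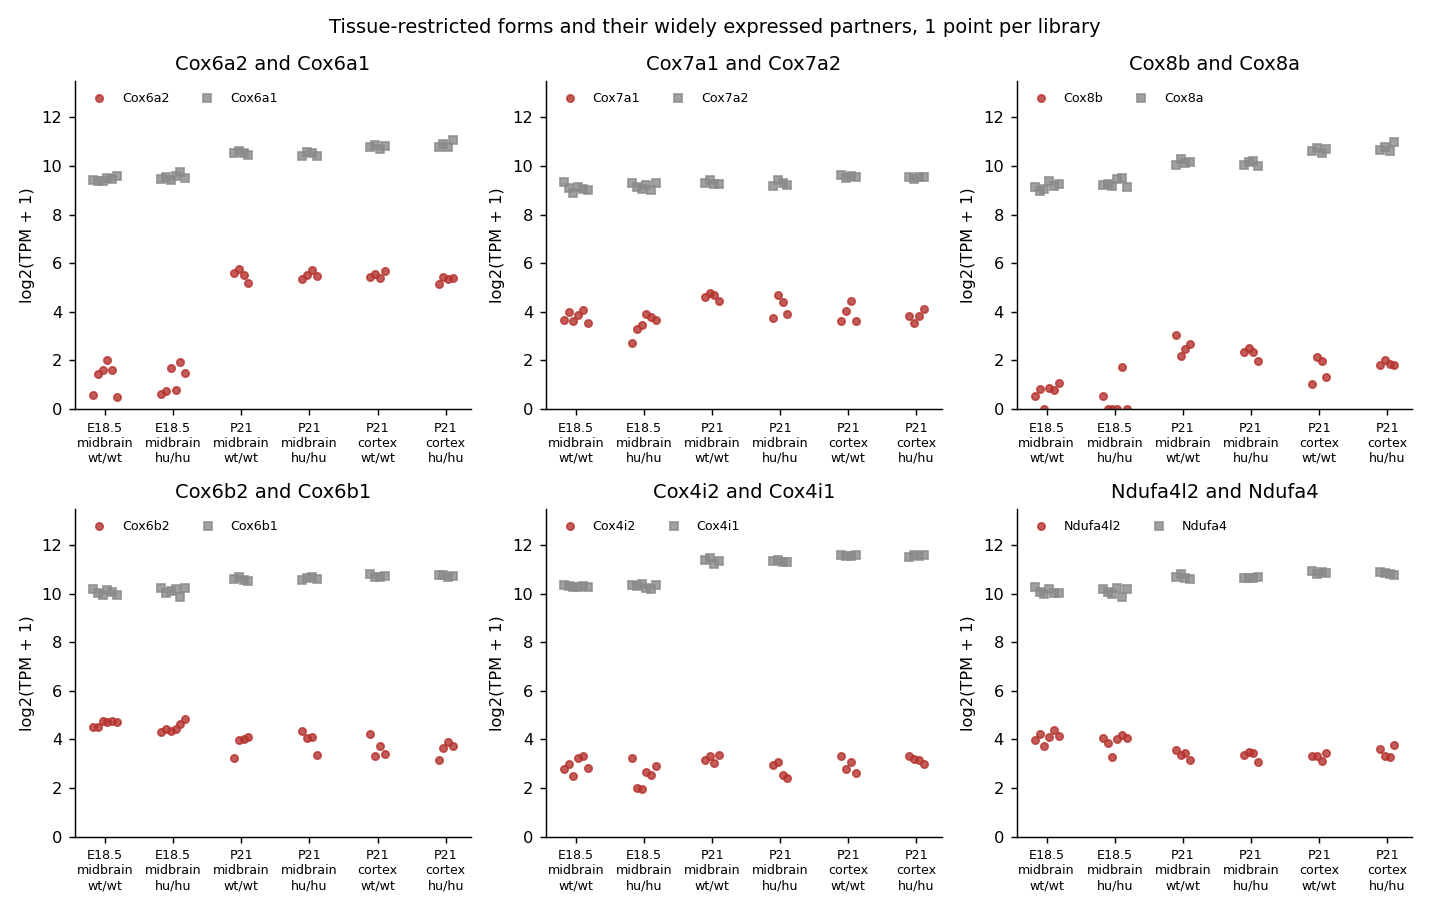
Level of 6 tissue forms and their widely expressed partners as log2(TPM + 1) (y axis) in each library (points) by age, area and genotype (x axis). For Cox6a2 both P21 areas stand clear of the E18.5 libraries, for Cox8b P21 midbrain does and P21 cortex overlaps them, and every partner lies above its form.

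Neighbouring pathways moved in part with the chain. At the same rule 42.4% of all genes rose with age and 43.3% fell. Of 17 genes of the citrate cycle and pyruvate dehydrogenase all rose, from Cs (0.24) to Ogdh (1.53), with a median of 0.77. Of 17 glycolysis genes 13 rose and 2 fell, with Aldoc highest at 3.12 and Ldha lowest at 0.499 of its embryonic level, and Ldhb rose by 1.95. Of 46 assembly factors of the complexes 33 rose and 7 fell, with Cox17, a copper carrier for complex IV, highest at 2.16 and 2010305A19Rik (Coa7) lowest at -0.66. Of 14 genes of mitochondrial protein import and membrane transport 10 rose and 2 fell, with Timm17a at 1.29 and Timm50 at -0.42. Of 5 further genes of complexes and cytochrome c that the symbols missed 4 rose, with Cycs at 0.84, and Atpif1, an inhibitor of ATP synthase, fell (-0.31). Of 18 regulators of mitochondrial biogenesis 6 rose and 6 fell. Ppargc1b rose by 1.69 ± 0.06, Esrra by 1.67 ± 0.06 and Ppargc1a by 0.58 ± 0.04, while Nrf1 fell by 0.69 ± 0.04 on the log2 scale and Gabpa by 0.53 ± 0.04.

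Markers of cell types moved with age as well. The 4 oligodendrocyte markers all rose, from a summed level of 54.8 to 76.5 TPM at E18.5 to 18742 to 21202 in P21 midbrain, and the 4 markers of progenitors and dividing cells all fell, from 157 to 181 down to 32.0 to 40.5. Of 4 neuron markers 3 rose and 1 fell, from a sum of 1320 to 1474 TPM to one of 2905 to 3181. Astrocyte markers rose in 3 of 4 and microglia markers in 4 of 4. In bulk tissue fewer cells of a type and less RNA per cell cannot be told apart, and the part of these cells in the members' levels was not tested.

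The comparison of midbrain with cortex at P21 asks where the chain differs between mature areas. It shares the P21 midbrain libraries with the age comparison. Of 83 members tested, 25 were higher in midbrain, 40 lower and 18 did not pass (the same edgeR test, 8 against 8 libraries with genotype as a covariate). Among all 16345 genes 37.9% were higher and 37.7% lower. The differences were small. Only 1 member was at least 1.5-fold higher and 6 were at least 1.5-fold lower, against 15.3% and 14.5% of all genes, and the median log2 difference was -0.08 for the members and 0.00 for all genes. Mean summed TPM was lower in midbrain for complex IV (11693 against 13731), complex III (4340 against 4678) and complex I (14925 against 15604), and higher for complex II (1534 against 1313) and complex V (13226 against 12770). Libraries of the areas did not overlap for complexes II and IV, and they overlapped for complexes I, III and V.

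The 40 genes lower in midbrain came from all 5 complexes and ranged from Cox4i1, the most abundant of complex IV (-0.31 ± 0.03), to small subunits such as Cox7c. Cox7c had 83.1, 93.7 and 109 TPM in midbrain (lowest, median, highest) and 166.5, 181 and 188 in cortex. The areas did not overlap, with a log2 difference of -0.99 ± 0.05 (adjusted p = 3.6e-15). Uqcr11 had 547.5, 599 and 690 TPM in midbrain and 1029, 1090 and 1142 in cortex (-0.91 ± 0.05, adjusted p = 5.16e-15). Ndufa1 had 249, 271 and 300 TPM against 421.5, 456 and 492 (-0.82 ± 0.04, adjusted p = 1.74e-15). Atp5e had 528, 574 and 658 TPM against 858, 914 and 943 (-0.72 ± 0.04, adjusted p = 1.05e-13). None of these 4 genes had libraries that overlapped between the areas. Cox8a and Ndufs5, both at -0.65, complete the 6 members that were at least 1.5-fold lower. In complex II Sdhd was lower by -0.10 ± 0.04 (adjusted p = 0.02), and not so in Nova1hu/hu libraries alone (-0.06, adjusted p = 0.285). Of the 83 members tested, 20 had every midbrain library above every cortex library, 21 had them below and 42 overlapped, against 28.1% wholly above and 19.2% wholly below among all genes tested.

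The 25 higher ones included Sdha and Atp5b, the catalytic subunits of complexes II and V. Sdha had 636, 662 and 671 TPM in midbrain and 430, 449 and 456 in cortex, with no overlap and a log2 difference of 0.48 ± 0.02 (adjusted p = 4.23e-16). Ndufs1 had 175, 179 and 189 TPM against 115, 119.5 and 124 (0.52 ± 0.02, adjusted p = 7.48e-16). Atp5b was higher by 0.29 ± 0.02 and Uqcrc2 by 0.25 ± 0.03. Of the 7 core subunits of complex I, 5 were higher and 1, Ndufs3, lower, with a median of 0.16, whereas of the 30 accessory genes 6 were higher and 17 lower, with a median of -0.15. Cox8b was higher in midbrain by 0.80 ± 0.25 (adjusted p = 0.00621) and Cox7a1 by 0.49 ± 0.16 (adjusted p = 0.00678), and neither passed in Nova1hu/hu libraries alone (0.50, adjusted p = 0.182, and 0.35, adjusted p = 0.172). Ndufs7, higher by 0.10 ± 0.04 (adjusted p = 0.0356), did not pass in either genotype alone, nor without any 1 of 3 libraries, the second Nova1hu/hu library of either area and the second Nova1wt/wt library of midbrain (0.07 to 0.09). Subunit c was split differently, since Atp5g1 gave 27.9% of it in cortex and 21.6% in midbrain and Atp5g3 70.3% and 77.2%.

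The direction went with exon length. This was looked at after the regional values had been seen. Of 45 tested chain genes with exons under 700 nt in the deposited tables, 6 were higher in midbrain and 30 lower, and of 37 longer ones 18 were higher and 10 lower. Among all genes, 19.5% of 615 short ones were higher and 45.9% lower, and 38.6% of 15730 longer ones were higher and 37.4% lower. The median log2 difference was -0.24 for the short and 0.07 for the longer members, and -0.19 and 0.01 for short and longer genes at large. Across the 76 tested chain genes other than tissue forms, Pearson's r between the log2 difference and log10 exon length was 0.63, and across all 16345 genes it was 0.05. The points share libraries and a normalization, and genes are not independent, so these are descriptions. The 47 short members made up 68.2% ± 0.502 of the chain's TPM in cortex and 62.4% ± 0.596 in P21 midbrain (SD, n = 8), with no overlap, and 61.8% ± 0.929 in embryonic midbrain (n = 12). RNA quality values were not used here, and the part of RNA integrity or fragment length in this pattern was not tested. With age, by contrast, the median change was 0.74 for both short and longer members.

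**Figure D4:**
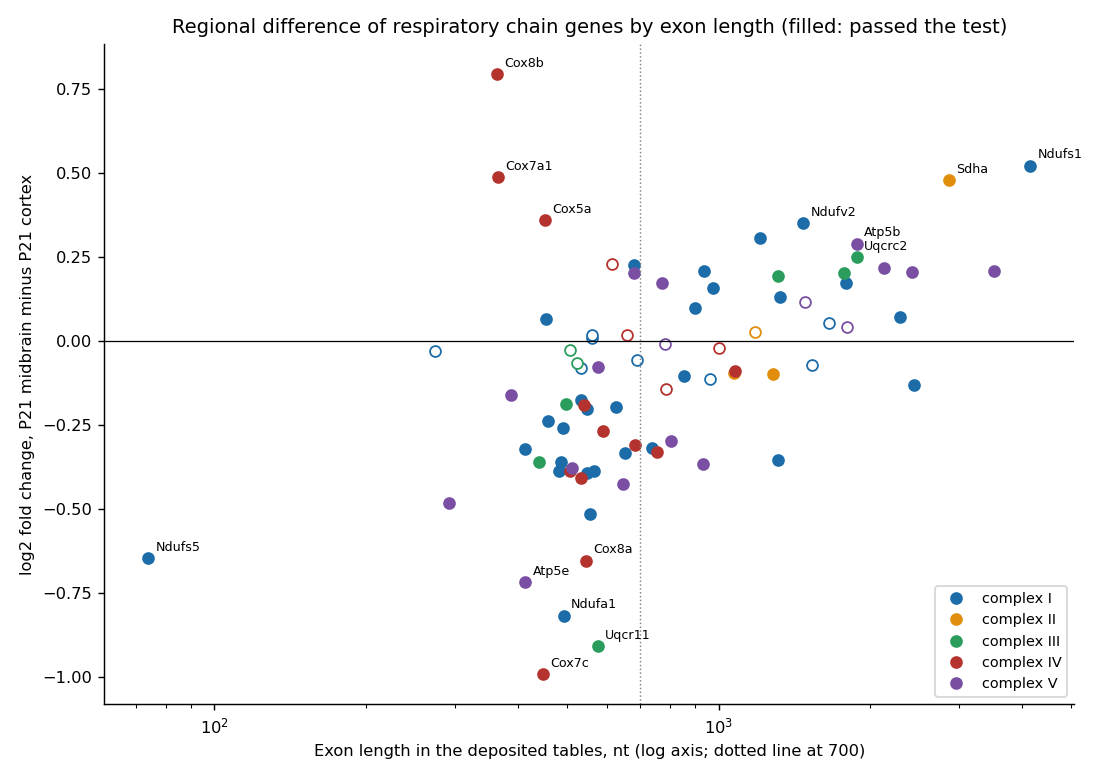
Log2 difference of each tested chain gene between P21 midbrain and P21 cortex (y axis) against its exon length in nt (x axis, log scale), coloured by complex; filled points passed the test. Short genes such as Cox7c, Uqcr11 and Ndufa1 lie below 0 and long ones such as Ndufs1 and Sdha above, with Cox8b, Cox7a1 and Cox5a as short genes above 0.

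Other energy genes were compared by area at the same rule, at which 37.9% of all genes were higher in midbrain and 37.7% lower. Of the 17 genes of the citrate cycle and pyruvate dehydrogenase 15 were higher in midbrain and 1, Pdha1, lower (-0.09), with a median of 0.20 and Ogdh highest at 0.53. Of 17 glycolysis genes 6 were higher and 8 lower, with Ldha lowest at -1.32 and Aldoc highest at 0.43. Of 46 assembly factors 16 were higher and 21 lower, from Atpaf1 (0.74) to 2010305A19Rik (-0.46). Of 18 biogenesis regulators 6 were higher and 4 lower, from Esrrb at 2.50 to Polg at -0.26, of 14 genes of import and transport 3 and 5, from Vdac3 at 0.44 to Tomm22 at -0.27, and of the 5 genes the symbols missed 0 and 3, with Atpif1 lowest at -0.63. Summed oligodendrocyte markers were 18742 to 21202 TPM in midbrain and 5385 to 6089 in cortex, with 4 of 4 higher in midbrain, and summed neuron markers were 2905 to 3181 and 3634 to 3923, with 4 of 4 lower. Their part in the regional differences was not tested.

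The comparison of genotypes asks whether the humanized allele altered the level of these genes. No member passed the test in any area, and no gene of all those tested did. The tests covered 81 members and 15540 genes in embryonic midbrain, 83 members and 15972 genes in P21 midbrain, and 83 members and 15767 genes in cortex, and 0% of genes passed in each (edgeR and, as an alternative, DESeq2). The study's own edgeR analysis, at the same thresholds, reported Gkn3, not a member, as lower in Nova1hu/hu in P21 midbrain. Which edgeR test it used is not stated, and the cause of this difference was not tested. At an unadjusted p under 0.05 the members numbered 1, 2 and 4, against 1.29%, 2.67% and 2.85% of all genes. With the replicate number as a block they numbered 7, all higher in Nova1hu/hu, 5, all lower, and 8, of which 3 were higher and 5 lower, against 5.23%, 4.6% and 5.69% of all genes, and again no member passed after adjustment, while 4 other genes did in P21 midbrain. The precision was high, with a median standard error of the members' log2 fold changes of 0.08, 0.05 and 0.04.

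The members' differences lay slightly to one side in each midbrain age. In embryonic midbrain 62 of 81 were positive, with a median of 0.04, in P21 midbrain 18 of 83 with a median of -0.03, and in cortex 33 of 83 with a median of -0.01. Among all genes 49.6%, 49.9% and 49.6% were positive. The genes share libraries and are not independent. Leaving out 1 library at a time, the median ran from 0.01 to 0.07 in embryonic midbrain and from -0.05 to 0.00 in P21 midbrain. The second Nova1wt/wt library decided the side there, since without it 46 of 83 differences were positive. With library totals alone 73, 4 and 26 were positive. The median size of the difference was 0.05, 0.03 and 0.03 for the members and 0.05, 0.05 and 0.05 for all genes.

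The members with the smallest p were small differences or low genes. In embryonic midbrain Ndufb2, an accessory subunit of complex I, had 316, 331 and 356 TPM (lowest, median, highest) in Nova1hu/hu and 286, 300 and 328 in Nova1wt/wt. It was higher in 6 of 6 pairs of the same number, and the groups overlapped (0.14 ± 0.06, 95% interval 0.01 to 0.27, adjusted p = 1, exact two-sided permutation p = 0.013). Cox7a1 (-0.33 ± 0.21) and Ndufa3 (0.12 ± 0.08) followed, with overlapping groups and adjusted p = 1 in the same test.

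In P21 midbrain Ndufc2, a subunit of the membrane arm, had 298, 324, 310 and 299 TPM in the 4 Nova1hu/hu libraries and 340, 344, 328 and 327 in the 4 Nova1wt/wt libraries. The groups did not overlap, at the smallest p that 4 against 4 libraries allow (exact two-sided permutation p = 0.0286), yet the log2 fold change of -0.12 ± 0.04 had an adjusted p = 1 across all genes. Cox4i2 had 6.75, 7.49, 4.78 and 4.38 TPM in Nova1hu/hu and 7.98, 9.09, 7.15 and 9.18 in Nova1wt/wt, or 41 to 97 counts a library. It was lower in 4 of 4 pairs with overlapping groups (-0.50 ± 0.20, 95% interval -0.93 to -0.08, adjusted p = 1, exact permutation p = 0.0571). Cox7a1 had 12.5, 24.5, 20.1 and 14.1 TPM against 23.5, 26.2, 24.9 and 20.8 (-0.40 ± 0.20, adjusted p = 1, exact permutation p = 0.114). It was lower in 4 of 4 pairs.

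In P21 cortex Ndufa11 had 52.5, 54.8, 60.2 and 55.1 TPM in Nova1hu/hu and 63.7, 63.3, 62.2 and 56.4 in Nova1wt/wt. Atp5g1 had 440, 441, 463 and 419 TPM against 488, 484, 471 and 463. Both were lower in 4 of 4 pairs, with overlapping groups (-0.14 ± 0.06 and -0.11 ± 0.04, adjusted p = 1, exact permutation p = 0.0571 for each). Ndufa7 was lower in 3 of 4 pairs (-0.12 ± 0.05, adjusted p = 1, exact permutation p = 0.0857).

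**Figure D5:**
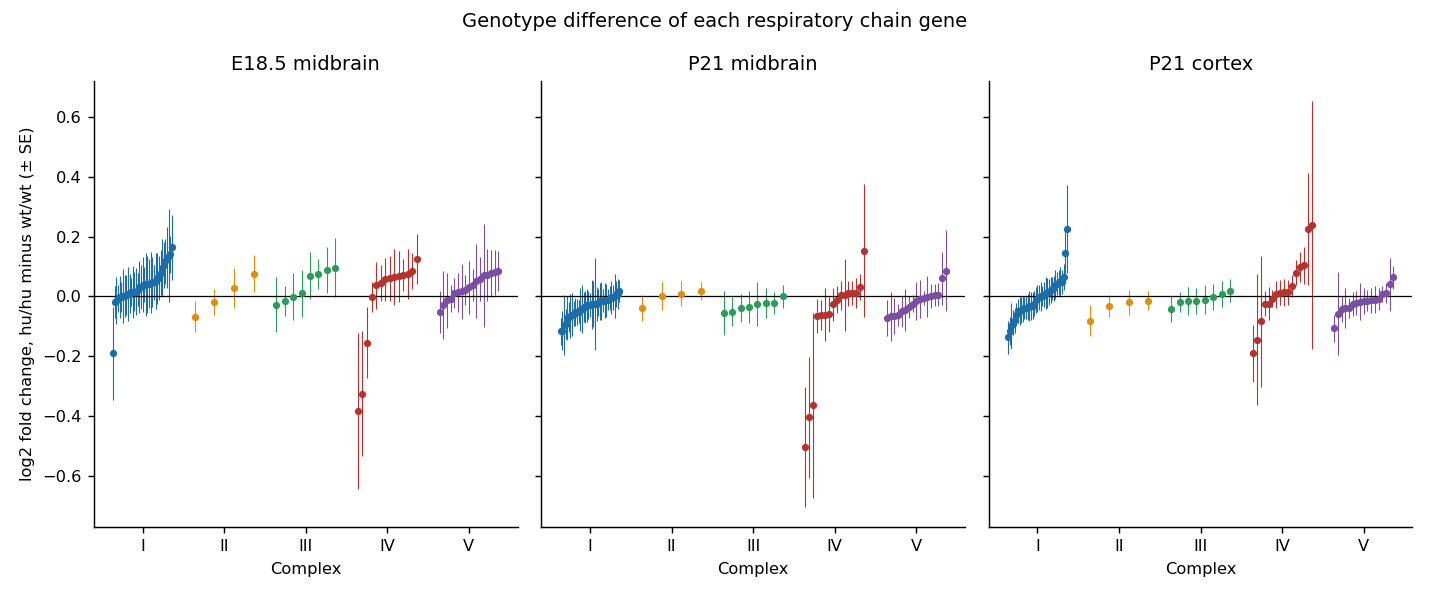
Log2 fold change of each tested chain gene, Nova1hu/hu minus Nova1wt/wt (y axis, ± SE), by complex (x axis) in the 3 areas. Nearly all points lie close to 0, those farthest from it are the low tissue forms Cox4i2, Cox7a1, Cox8b and Ndufa4l2, and no gene passed the test.

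Whether the genotype effect differed between ages or areas was tested as an interaction across 28 libraries. No member and 0% of 16805 genes passed in either interaction. At an unadjusted p under 0.05 there was 1 member in each. Ndufb2 had a difference of -0.16 ± 0.08 between P21 and E18.5 midbrain (2.24% of all genes at this level) and Cox4i2 one of -0.72 ± 0.35 between P21 midbrain and cortex (1.65% of all genes), both with adjusted p = 1 (edgeR). With the replicate block there were 11 of 83 members, all negative, against 5% of all genes, and 4 of 83, all negative, against 3.24%. None passed after adjustment. In the main fits 10 of 83 differences were positive between ages and 35 of 83 between areas, against 51.9% and 51.4% of all genes. The genes share libraries and are not independent, so these counts are descriptions. The Nova1hu/hu and Nova1wt/wt values of Cox4i2 in cortex were 8.87, 8.07, 7.93 and 6.93 TPM and 8.89, 5.85, 7.33 and 5.21 TPM, which overlap.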

How the data were processed

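Polyadenylated RNA was sequenced in paired ends. Alignment to mm10 was made by the authors with OLego and gene counting with Quantas. Their deposited tables give 23038 genes per library with an exon length, RPKM and an expected count, which the authors made with the countit step of Quantas. The version of the gene annotation and the handling of reads with several matches are not given in the sources used here, and counting is not stated to use strand. The RPKM column was not used. TPM was computed from the deposited counts and exon lengths. Counts were rounded and tested with edgeR 4.0.16 (R 4.3.3, glmQLFit, TMM factors, filterByExpr), adjusting p after Benjamini and Hochberg over all genes. Thresholds were 0.05 for p and 0.1 for adjusted p. The authors name edgeR, and its quasi-likelihood form was chosen here. The SE is the log2 fold change divided by the root of F. DESeq2 1.42.0 was an alternative. The procedure was tested on simulated counts.

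In each genotype comparison libraries of the same number deviated together (correlations of deviations 0.256 to 0.499 for embryonic midbrain, 0.266 to 0.3 for P21 midbrain, 0.252 to 0.31 for cortex), so the numbers were taken to pair them. This pairing entered only the replicate block and the counts of pairs. The main genotype fits with their SE and intervals, and the exact permutation tests, did not use it. The study states male and female pairs without tying them to numbers. Intervals of 95% and the floor of 3 counts cover counting and library error only.

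The members, gene lists and tests were chosen with earlier results of these data known. Named genes are, per complex, the most and least abundant and those with the largest rise and fall by age and area, all tissue forms and partners, the subunit c genes, the 3 smallest p per genotype comparison, and the extremes of each other list. Further genes (such as Ppargc1a and Cox5b) were added after their values were seen. The exon length split was chosen after the regional values were seen. The 10-letter NRF1 and YY1 motifs planned were searched by their first 9 letters. Cerebellum libraries were not analysed here.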

Additional observations from a re-analysis of the deposited data

Results flagged for a closer look

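In 66 groups of libraries (the 5 complex sums and 6 tissue forms in each of 6 groups) a library standing apart was looked for with Dixon's test, which marks about 1 group in 20 by chance. It marked 2, both of Cox8b. In E18.5 midbrain the fifth Nova1hu/hu library had 2.33 TPM of Cox8b, from 6 counts, and the other 5 lay between 0 and 0.465. In P21 cortex the second Nova1hu/hu library had 2.9975 TPM, from 13 counts, and the other 3 lay between 2.47 and 2.56. Both rest on few counts, and no complex sum had such a library. No interaction of genotype with age or area passed the adjusted threshold.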

How the results depend on the processing

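In the age comparison 71 to 78 members were called higher and 1 to 3 lower over all alternatives, with 1 lower in Nova1hu/hu libraries alone. Without the 10 genes with the most counts, summed TPM was higher in every group, at 11372, 15983.2 and 16343 for complex I (embryonic midbrain, P21 midbrain, P21 cortex), 1146, 1643 and 1375 for complex II, 3065, 4647 and 4900.1 for complex III, 7679, 12523 and 14378 for complex IV, and 10724, 14165 and 13374 for complex V. Of 1839 refits of named members 1805 kept direction and side of the threshold, 16 lost the call, 10 gained it and 8 changed sign, and the cause was not tested. The sign changes were Atp5e by age in Nova1wt/wt libraries alone (0.0078), Ndufa1 by age with library totals alone (-0.0497), and by area in Nova1wt/wt libraries alone Cox4i2 (0.22), Cox6a2 (-0.0795) and Ndufa4l2 (0.0165). Leaving out 1 library, Cox6a2 by area ran from -0.0226 to 0.0783. None of these was called in the full set. Cox4i2 by area passed in Nova1hu/hu libraries alone (-0.51, adjusted p = 0.0319). Leaving out each library, 79 to 80 members were called by age, 63 to 67 by area and 0 by genotype. The replicate block by area, where same-numbered libraries did not deviate together (-0.216 to -0.119), gave 25 higher and 40 lower, and within genotype it changed no call of a member. Low counts limit Cox7b2, Cox8b and Cox8c, and in embryonic midbrain Cox6a2.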
